A study of Mus musculus with 4 samples.

Results

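The genes described are 47 of the 25239 genes counted in mouse liver, listed by name because their products handle DNA adducts and DNA crosslinks. They cover the Fanconi anaemia pathway, homologous recombination, nucleotide excision repair, translesion synthesis, the damage kinases, nucleotide supply and direct reversal of alkylation. All 47 symbols were found in the count tables, and the list was drawn up with earlier results of these data known. C57BL/6 mice aged 6 to 8 weeks received for 3 weeks either Gynura segetum extract (30 g/kg per day, from a concentrate of 2 g/mL, into the stomach) or saline. There are 2 extract libraries, titled as the PAs (pyrrolizidine alkaloids) group, and 2 control libraries. Gynura segetum is used as a herbal medicine and makes pyrrolizidine alkaloids, and the series title names liver injury induced by them. The labels do not say whether each library is a separate mouse or a pool, and each p-value therefore reflects only how far these libraries spread, which may be technical.

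Liver cytochrome P450 enzymes turn pyrrolizidine alkaloids into reactive pyrroles, which bind DNA bases and can tie strands together. Bulky adducts are cut out by nucleotide excision repair. A crosslink that stops a replication fork is recognised by the Fanconi core complex, which ubiquitinates the FANCD2-FANCI pair. Nucleases then unhook the crosslink, translesion polymerases copy past the remnant and homologous recombination rebuilds the broken strand. Many Fanconi and recombination genes are transcribed mainly in cycling cells, whereas excision repair also works in resting hepatocytes.

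The summed gene counts were 40013188 and 45754235 in the extract libraries and 49711750 and 32215268 in the control libraries. Values are given in CPM, counts scaled to a common library size with TMM factors (trimmed mean of M-values), on which scale 1 read was worth 0.0208 to 0.0337 CPM. All 8 hepatocyte markers checked, from albumin to Hnf4a, were detected in every library. Their summed level was 91564.6 and 97014.8 CPM in the extract libraries and 138792.5 and 145518.6 CPM in the control libraries, and 2 of the 8 were lower at an adjusted p under 0.05 (5 without either control library, 0 without either extract library). The 5 Kupffer cell markers, all lower, summed to 20.5 and 24.2 CPM in extract and 416.2 and 343.5 CPM in control libraries. Of 5 sinusoidal endothelial markers, 3 were lower (Stab2, Clec4g and Gpr182). Stab1 and Lyve1 did not pass, and their extract libraries lay above both control libraries (log2 fold changes 0.22 and 0.84). The list summed to 153.0 and 144.8 CPM in extract and 224.2 and 217.8 CPM in control libraries. Among all genes tested, 3.63% were lower at an adjusted p under 0.05. No marker of these 3 lists was at 0 counts in any library. The part of cell composition in the results below was not tested, and in whole liver fewer cells of a type cannot be told apart from less RNA per cell.

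Single genes of translesion synthesis and direct reversal gave the largest differences, while Polh, Rev3l and Rad18, also of translesion synthesis, did not pass the threshold. The polymerase gene Polk, the scaffold gene Rev1 and the methyltransferase gene Mgmt were 8.38-fold, 4.69-fold and 4.17-fold higher after the extract, and Ercc5, Dclre1a, Atr and Ercc3 were higher by smaller amounts, while Mad2l2 was lower. Enough counts for edgeR's quasi-likelihood test were present for 46 of the genes. At an adjusted p under 0.05, 7 of these (15.2%) passed as higher and 1 (2.17%) as lower, against 4.91% higher, 3.63% lower and 8.54% in either direction among all 13963 genes tested. Because the list was chosen with earlier results of these data known, setting these shares side by side is not an independent test. DESeq2 and limma-voom also gave 7 and 1, where DESeq2 called 7.55% of all its genes higher and 6.73% lower. At an unadjusted p under 0.05 the repair gene counts were 9 higher and 2 lower, and 12.3% of all genes tested were higher and 11.2% lower, the shares to set beside every unadjusted count given for a list. The median log2 fold change of extract over control was 0.18 for the 46 repair genes (0.06 without control replicate 2) and -0.0047 for all genes tested. Calls fell among genes of translesion synthesis, direct reversal, excision, crosslink trimming and the damage kinases. Fits on 3 libraries gave 5 higher and 0 lower repair genes when either extract library was dropped. When control replicate 1 was dropped the counts were 9 and 2, and dropping control replicate 2 gave 8 and 1. Over all genes, dropping extract replicate 1 gave 233 higher and 134 lower, and dropping extract replicate 2 gave 310 and 169. Dropping control replicate 1 gave 1826 and 1420, and the fit that left control replicate 2 aside gave 1809 and 1782.

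**Figure D1:**
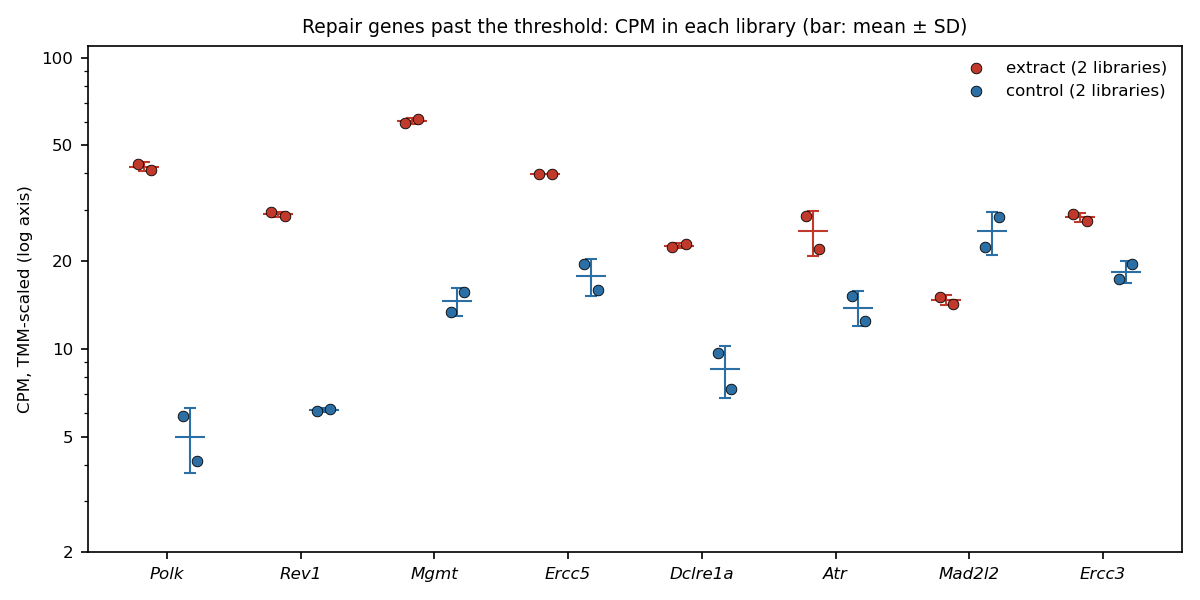
CPM on a log axis of the 8 repair genes past the threshold, in order of p-value, with 1 point per library and the mean ± SD of each group (n = 2 libraries each). Both extract points lie above both control points for Polk, Rev1, Mgmt, Ercc5, Dclre1a, Atr and Ercc3, and below them for Mad2l2.

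Both extract libraries lay above both control libraries for 18 of the 46 genes (39.1%) and below them for 10 (21.7%). Over all genes tested these shares were 27.6% and 26.7%. The remaining 18 genes overlapped between the groups. Among the 38 genes that did not pass the threshold, log2 fold changes ran from -1.48 to 1.09. For 17 of these 38 the unadjusted 95% interval of the fold change stayed within a 2-fold change in either direction, and for 21 it reached 2-fold, so these libraries do not exclude a change of that size in them. Every gene called had a mean of at least 15.5 CPM, and 13 of the 47 genes lay under a mean of 2 CPM.

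**Figure D2:**
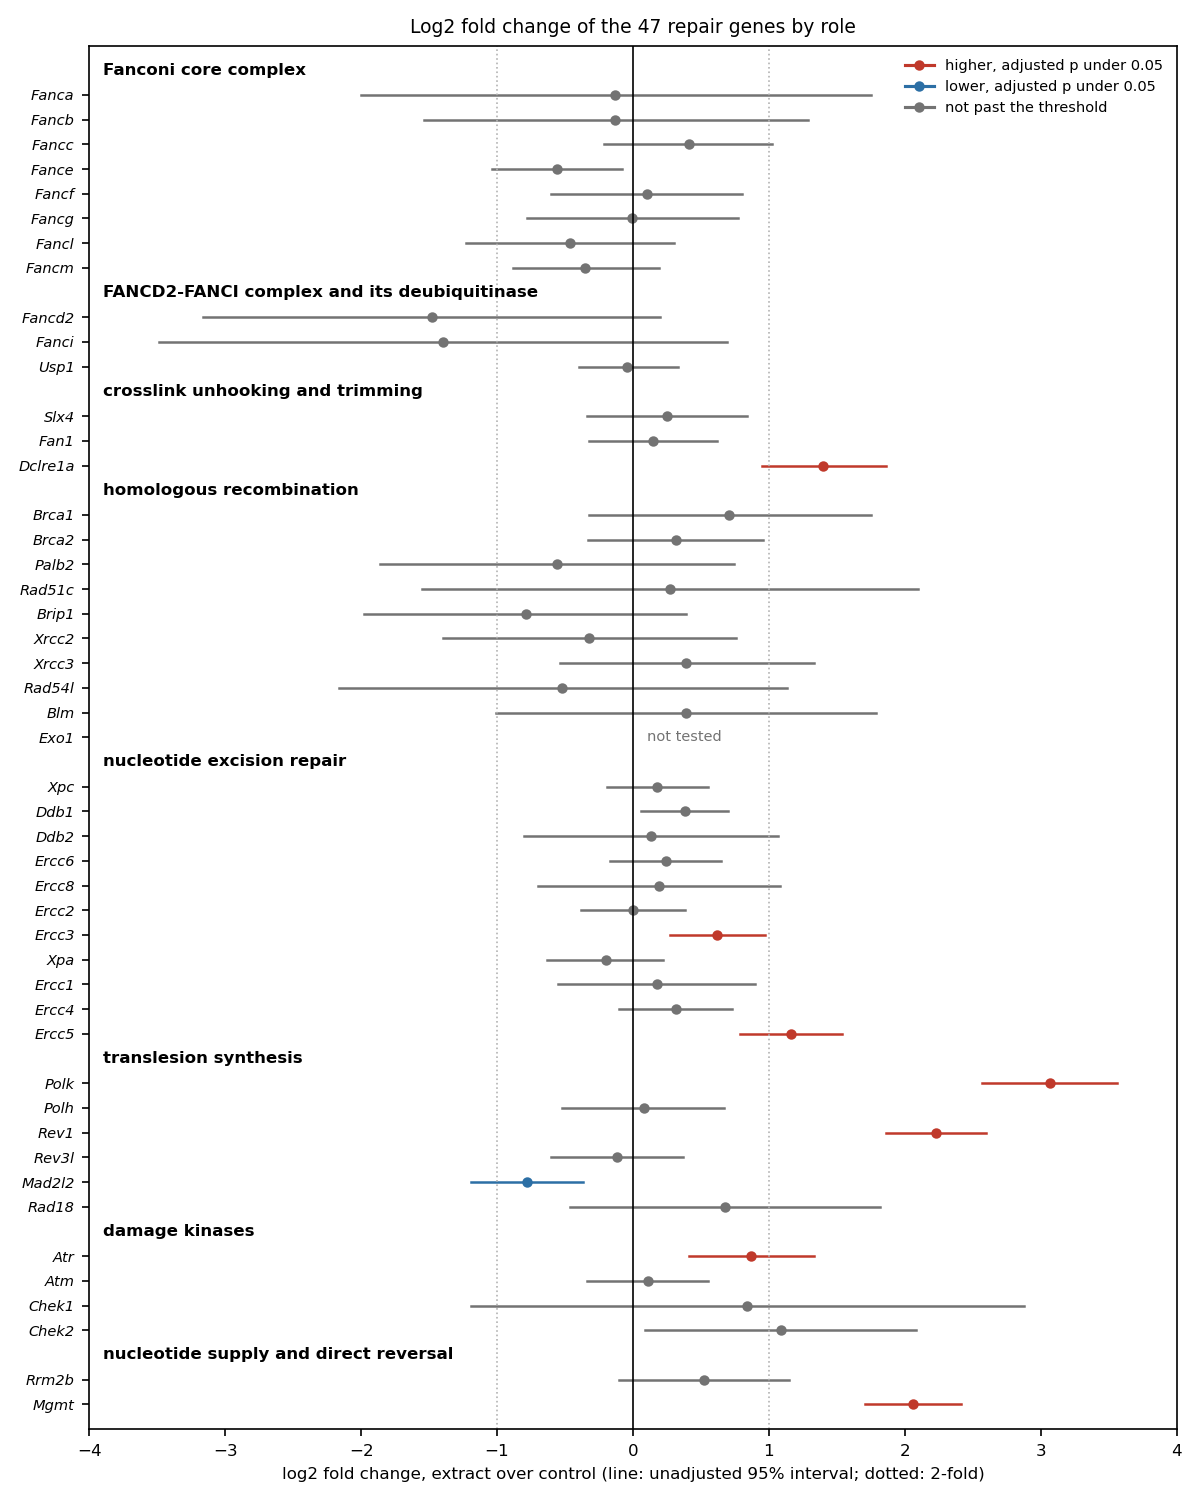
Log2 fold change of extract over control on the x axis for each repair gene, grouped by role, with the unadjusted 95% interval as a line. The intervals of Polk, Rev1 and Mgmt lie wholly above a 2-fold rise, and most Fanconi and recombination genes have wide intervals that cross 0.

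Translesion polymerases insert bases opposite damaged templates that the replicative polymerases cannot read. Polk encodes polymerase kappa, which copies past bulky adducts on guanine, and lies on chromosome 13 (positions 96480687 to 96542579, mm10). It had 43.2 and 41.1 CPM in the extract libraries, against 5.88 and 4.11 CPM in the control libraries. Its log2 fold change was 3.07 (SE 0.21, edgeR adjusted p = 0.000652), the largest of the 46, and it ran from 2.84 to 3.36 over 12 alternative analyses, with Polk past the threshold in all of them. Rev1 encodes a deoxycytidyl transferase that also holds other translesion polymerases at the lesion (chromosome 1, 38052786 to 38129921). It had 29.4 and 28.5 CPM in extract and 6.11 and 6.23 CPM in control libraries, so the groups lay far apart and each pair was tight. Its log2 fold change was 2.23 (SE 0.16, edgeR adjusted p = 0.000696). In GENCODE vM21, 26.6% of the exon bases of Rev1 also lie in exons of Eif5b on the opposite strand, and the strand setting of the counting is not given. Eif5b itself did not pass the threshold, at 67.3 and 62.1 CPM in extract and 76.7 and 72.8 CPM in control libraries (log2 fold change -0.21).

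Mad2l2 encodes REV7, the adaptor between REV1 and polymerase zeta, and was the only repair gene lower at the threshold (chromosome 4, 148130158 to 148145704). It had 15.1 and 14.3 CPM in extract, against 22.3 and 28.3 CPM in control libraries, with no overlap. The log2 fold change was -0.78 (SE 0.17, edgeR adjusted p = 0.0402). Leaving out extract replicate 1 raised the adjusted p to 0.226 and leaving out extract replicate 2 raised it to 0.266, with changes of -0.83 and -0.76. Rev3l, the catalytic subunit of polymerase zeta, had 22.6 and 20.9 CPM in extract and 27.9 and 19.1 CPM in control libraries, so that the groups overlapped (log2 fold change -0.12, unadjusted 95% interval -0.60 to 0.37). REV1, REV3L and REV7 act together, and their 3 genes gave a higher, an uncalled and a lower value. Polh, the polymerase that reads ultraviolet lesions, had 8.55 and 6.09 CPM in extract and 7.03 and 6.83 CPM in control libraries, with a log2 fold change of 0.08. Rad18, the ligase that marks PCNA for polymerase exchange, had 1.85 and 1.32 CPM in extract and 1.13 and 0.842 CPM in control libraries. Its log2 fold change of 0.68 had an interval of -0.46 to 1.82.

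Mgmt encodes the protein that removes alkyl groups from guanine in a single step and is used up by it (chromosome 7, 136894463 to 137128193). It had 59.7 and 61.5 CPM in extract, against 13.4 and 15.7 CPM in control libraries. The log2 fold change was 2.06 (SE 0.15, edgeR adjusted p = 0.000732), and it ran from 1.95 to 2.17 over the alternatives. Rrm2b encodes the small ribonucleotide reductase subunit that supplies nucleotides for repair outside S phase, and is a known p53 target. It had 5.15 and 5.65 CPM in extract and 3.96 and 3.53 CPM in control libraries, without overlap but not past the threshold (log2 fold change 0.52, edgeR adjusted p = 0.294).

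The promoter windows of Polk, Rev1 and Mgmt are shown because these were the called genes with the smallest p-values. The sequences are from RefSeq on GRCm38.p6, 250 bases before to 50 after the annotated start, 5′ to 3′ on the gene's strand, taking the most upstream window where more than 1 is listed. The table sets the windows of Rev1 and Mgmt on a start that lies a short way inside the gene spans given above, so these windows do not flank the outermost ends of the annotated genes. They are chr13:96542530-96542829 (minus strand) for Polk, chr1:38129617-38129916 (minus strand) for Rev1 and chr7:136894336-136894635 (plus strand) for Mgmt. Capitals mark matches on either strand to GGGCGG (the Sp1 box), CACGTG (the E-box) and TGACNNNGC (the core of the antioxidant response element that NRF2 binds).
Polk: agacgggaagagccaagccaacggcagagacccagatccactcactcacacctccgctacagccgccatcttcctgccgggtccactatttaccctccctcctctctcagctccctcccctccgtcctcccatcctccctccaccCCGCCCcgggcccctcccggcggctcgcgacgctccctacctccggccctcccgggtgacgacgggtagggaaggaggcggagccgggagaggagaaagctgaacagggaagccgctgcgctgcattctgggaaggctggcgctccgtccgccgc
Rev1: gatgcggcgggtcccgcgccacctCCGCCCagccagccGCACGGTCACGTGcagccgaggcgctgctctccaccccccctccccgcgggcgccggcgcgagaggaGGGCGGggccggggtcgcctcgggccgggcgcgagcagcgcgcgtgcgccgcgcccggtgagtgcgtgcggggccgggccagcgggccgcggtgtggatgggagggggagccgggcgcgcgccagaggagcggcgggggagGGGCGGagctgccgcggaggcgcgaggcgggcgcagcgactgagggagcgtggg
Mgmt: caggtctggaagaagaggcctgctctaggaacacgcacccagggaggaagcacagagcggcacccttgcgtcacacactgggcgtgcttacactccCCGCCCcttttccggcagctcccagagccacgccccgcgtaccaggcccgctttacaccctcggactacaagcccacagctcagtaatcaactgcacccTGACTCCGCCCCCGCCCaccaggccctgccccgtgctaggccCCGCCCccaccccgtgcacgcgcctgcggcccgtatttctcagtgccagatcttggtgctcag
The Polk window held 1 Sp1 box, Rev1 held 3 with 1 E-box and 1 antioxidant element that overlap each other, and Mgmt held 4 with 1 antioxidant element that overlaps 1 of them. Of all 32851 RefSeq windows of this length, 35.7% held GGGCGG, 7.15% CACGTG and 12.4% TGACNNNGC. Among 44 windows of the repair genes the shares were 61.4%, 9.09% and 15.9%. The CCAAT letters were in 22 of the 44 repair gene windows and 37.4% of all windows, and in none of these 3. The p53 decamer, searched on both strands by its consensus, matched none of the 3 windows, 9.09% of the repair gene windows and 8.36% of all windows. A match is a run of letters and was not tested as a site.

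Excision repair removes a short stretch of strand around a bulky adduct. Its 11 genes gave 2 higher (18.2%), 0 lower and 9 not past the threshold by edgeR, against 4.91% higher and 3.63% lower over all genes tested. At an unadjusted p under 0.05 there were 3 higher and 0 lower, against 12.3% and 11.2% over all genes. DESeq2 and limma-voom gave 2 higher and 0 lower each. Ercc5 encodes XPG, the nuclease that cuts on the 3′ side of the lesion (chromosome 1, 44146948 to 44181260). It had 39.8 and 39.7 CPM in extract, against 19.6 and 15.9 CPM in control libraries, a log2 fold change of 1.16 (SE 0.16, edgeR adjusted p = 0.00833). Ercc3 encodes XPB, the TFIIH subunit that opens the DNA (chromosome 18, 32240304 to 32270151). It had 29.0 and 27.5 CPM in extract and 17.3 and 19.5 CPM in control libraries, with a log2 fold change of 0.62 (SE 0.15, edgeR adjusted p = 0.0494). Ercc3 sat at the edge of the threshold and passed in 7 of 12 alternatives, with an adjusted p of 0.442 without extract replicate 1 and 0.323 without extract replicate 2.

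The partners of XPG and XPB stayed short of the threshold. Ercc2, the other TFIIH helicase, had 13.8 and 13.9 CPM in extract and 14.1 and 13.7 CPM in control libraries. Ercc1 and Ercc4, which form the nuclease on the 5′ side, had log2 fold changes of 0.18 and 0.32, and the scaffold Xpa had -0.20. Ddb1, the adaptor of the damage-sensing ubiquitin ligase, had the highest level of the 47 genes. It had 283.0 and 266.1 CPM in extract, against 209.8 and 212.7 CPM in control libraries, with no overlap, and a log2 fold change of 0.38 (interval 0.06 to 0.70, edgeR adjusted p = 0.148). Of the exon bases of Ddb1, 5.12% also lie in Tkfc on the opposite strand, which was itself 2.93-fold higher. Ddb2 and Xpc, which find the lesion and are p53 targets in human cells, had log2 fold changes of 0.13 and 0.18. Ddb2 had 2.27 and 2.92 CPM in extract and 2.90 and 1.82 CPM in control libraries, and Xpc had 26.9 and 24.8 CPM in extract and 24.8 and 20.8 CPM in control libraries. Ddb2 shares 23.8% of its exon bases with Acp2 on the opposite strand, so its reads are less certain. Ercc6 and Ercc8, which serve stalled RNA polymerase, had log2 fold changes of 0.24 and 0.19.

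Dclre1a was the single gene called among the 14 genes of crosslink recognition and unhooking, a share near the 8.54% called over all genes tested. It encodes SNM1A, the exonuclease that trims past a crosslink after incision (chromosome 19, 56529161 to 56548284). It had 22.3 and 22.9 CPM in extract and 9.71 and 7.30 CPM in control libraries, a log2 fold change of 1.40 (SE 0.19, edgeR adjusted p = 0.00868), and passed in all 12 alternatives. Slx4, the scaffold of the unhooking nucleases, had 6.03 and 5.37 CPM in extract and 4.61 and 4.98 CPM in control libraries, for a log2 fold change of 0.25. Fan1, another nuclease of this step, had 11.8 and 10.2 CPM in extract and 9.19 and 10.7 CPM in control libraries, for a log2 fold change of 0.15. The intervals of both stayed within a 2-fold change.

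The 8 Fanconi core genes had a median log2 fold change of -0.13 (0.14 when control replicate 1 was dropped and -0.30 when control replicate 2 was), and 0 of them passed by edgeR, DESeq2 or limma-voom, with 0 higher and 1 lower (12.5%) at an unadjusted p under 0.05, against 11.2% lower over all genes. That gene was Fance, the subunit that binds FANCD2, with 6.96 and 7.60 CPM in extract, against 10 and 11.4 CPM in control libraries (log2 fold change -0.56, edgeR adjusted p = 0.152). Without control replicate 1 its log2 fold change was -0.65, and without control replicate 2 it was -0.46. Fancc, another core subunit, had 5.42 and 6.97 CPM in extract and 4.84 and 4.51 CPM in control libraries, and Fancl, the ligase itself, had 3.01 and 4.74 CPM in extract and 4.79 and 5.92 CPM in control libraries. Fancm, the translocase that anchors the complex, had a log2 fold change of -0.35, Fancf 0.10, Fancg -0.01, and Fanca and Fancb -0.13 each. Exon bases of Fanci, Fanca, Fancf and Fancl are in part shared with a gene on the opposite strand, so their reads are less certain. Fancd2 shares 3.24% of its exon bases with an opposite-strand gene that had at most 1 count in any library. The target pair was scarce. Fancd2 had 8 and 12 counts in extract and 36 and 14 counts in control libraries, and Fanci had 3 and 17 counts in extract and 26 and 18 in control. The groups did not overlap for either gene, and the log2 fold changes of -1.48 and -1.40 had intervals of -3.16 to 0.20 and -3.49 to 0.69. Fanci was at -0.69 without extract replicate 1 and at -3.01 when extract replicate 2 was dropped. Usp1, which takes the ubiquitin off FANCD2, had 21.1 and 18.4 CPM in extract and 20.4 and 20.1 CPM in control libraries.

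Of 10 homologous recombination genes, 9 were tested and 0 passed by edgeR, DESeq2 or limma-voom, also at an unadjusted p under 0.05. Over all genes tested edgeR called 8.54% (unadjusted: 12.3% higher and 11.2% lower), so 0 of 9 cannot set this list apart. Their mean levels were at most 4.76 CPM (Brca2), whereas every repair gene called had at least 15.5 CPM. Except for Brca2, each tested gene had an unadjusted interval that reached a 2-fold change. These libraries therefore do not exclude a change of that size in those genes. Brca1 had 6.24 and 3.92 CPM in extract and 4.15 and 1.99 CPM in control libraries. Its log2 fold change was 0.71, and it was 1.35 without control replicate 1 and 0.29 without control replicate 2. Brca2, a breast cancer susceptibility gene of this pathway, had 5.10 and 5.44 CPM in extract and 3.71 and 4.78 CPM in control libraries (log2 fold change 0.32). Xrcc3, which acts in strand exchange, had 3.87 and 5.25 CPM in extract and 2.38 and 4.61 CPM in control libraries. The log2 fold change of Xrcc3 was 0.39, and it was 0.94 without control replicate 2 and -0.02 without control replicate 1. Brip1, the helicase partner of BRCA1, had 1.04 and 0.965 CPM in extract and 2.25 and 1.21 CPM in control libraries (log2 fold change -0.79). Palb2, Rad54l and Xrcc2 had log2 fold changes of -0.56, -0.52 and -0.32, and Rad51c and Blm 0.27 and 0.39. Rad54l, at 0.278 to 0.417 CPM, shares 15.4% of its exon bases with Lrrc41 on the opposite strand, so its reads are less certain. The exonuclease gene Exo1 had 1 and 2 counts in extract and 10 and 2 counts in control libraries and was not tested.

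**Figure D3:**
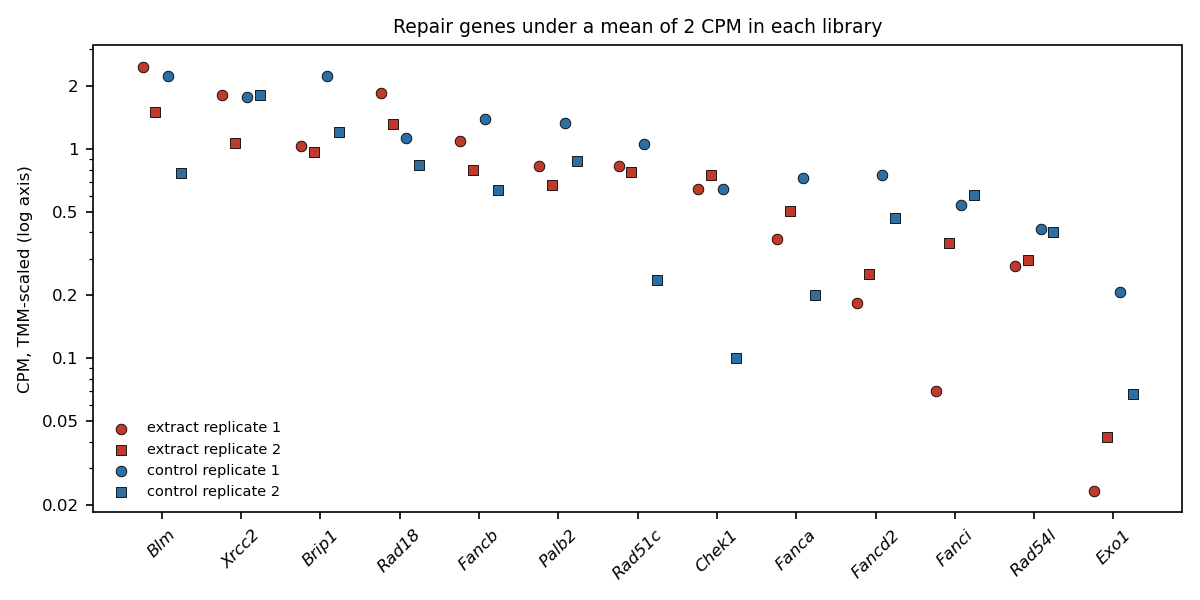
CPM on a log axis in each library for the 13 repair genes with a mean under 2 CPM, ordered by mean. Circles are replicate 1 and squares replicate 2, and control replicate 2 lies below control replicate 1 for 11 of the 13 genes.

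The control libraries differed from each other in these low genes. Chek1 had 0.646 CPM in control replicate 1 and 0.101 CPM in control replicate 2, from 31 and 3 counts. Rad51c had 1.06 and 0.236 CPM in the same order, and Fanca, Exo1, Blm and Fancb also differed by over 2-fold, as did Brca1, which has a higher mean of 4.07 CPM. Of 47 repair genes, 7 were over 2-fold higher in control replicate 1, against 9.04% of all genes tested. The 16 mitotic genes of cycling cells checked summed to 25.1 and 18.6 CPM in extract libraries, and to 48.3 and 25.2 CPM in control replicates 1 and 2, with 0 of the 16 at 0 counts in any library. The 8 lymphocyte markers summed to 2.92 and 3.46 CPM in extract and 14.6 and 4.21 CPM in control libraries. None of the 8 was at 0 counts in any library. The part of cycling cells or lymphocytes in the low repair genes was not tested.

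The damage kinases relay stalled forks and breaks to the cell cycle. Atr, the kinase of stalled forks, was higher (chromosome 9, 95857597 to 95953217), with 28.5 and 22.1 CPM in extract, against 15.2 and 12.5 CPM in control libraries. Its log2 fold change was 0.87 (SE 0.19, edgeR adjusted p = 0.0394). The adjusted p was 0.362 without extract replicate 1 and 0.0807 without extract replicate 2. Atm, the kinase of double-strand breaks, had 16.9 and 14.2 CPM in extract and 15.9 and 13 CPM in control libraries, which overlapped (log2 fold change 0.11, interval -0.34 to 0.55). Chek2, the kinase that ATM activates, had 2.92 and 3.04 CPM in extract and 1.77 and 1.01 CPM in control libraries. The groups did not overlap, but Chek2 was not past the threshold over all genes (log2 fold change 1.09, edgeR adjusted p = 0.178). With 1 library left out, its log2 fold change ran from 0.75 to 1.56. Chek1, the kinase that ATR activates, had 0.649 and 0.756 CPM in extract and a log2 fold change of 0.84, with an interval from -1.19 to 2.88. That value was 2.76 without control replicate 1 and 0.12 with control replicate 2 left out.

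Levels per length were compared as CPM per kilobase of the principal GENCODE transcript. Ddb1 had the highest level in each of the 4 libraries, at 63.5 and 59.7 in extract and 47.1 and 47.7 in control libraries. The next gene was Mgmt in both extract libraries and Mad2l2 in both control libraries. Mgmt had 20.6 and 21.3 CPM per kilobase in extract, against 4.65 and 5.41 in control libraries. Mad2l2 had 9.85 and 9.34 CPM per kilobase in extract, against 14.5 and 18.4 in control libraries. Polk had 10.2 and 9.72 CPM per kilobase in extract and 1.39 and 0.972 in control libraries. In the control libraries Polk thus lay below Polh, at 2.17 and 2.11, and in the extract libraries above it, where Polh had 2.64 and 1.88. Exo1 had the lowest level in each of the 4 libraries.

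Other repair genes gave few calls. Of 80 tested genes on 7 further lists (other Fanconi and recombination, checkpoint, excision and translesion genes, mismatch repair, base excision repair and end joining), 2 were higher (2.5%) and 0 lower by edgeR. Over all genes tested, edgeR called 4.91% higher and 3.63% lower. At an unadjusted p under 0.05 there were 5 higher and 4 lower, against 12.3% and 11.2% over all genes. DESeq2 gave 5 and 0, against 7.55% and 6.73% of all its genes, and limma-voom gave 2 and 0. These lists were chosen with earlier results of these data known. The median log2 fold change of these 80 was -0.02. The genes called were Wee1, the kinase that restrains CDK1, and Msh6, which recognises mismatches. The labels do not say when the mice were killed, and the part of time of day in these differences was not tested. Wee1 had 23.9 and 23.3 CPM in extract, against 2.36 and 0.842 CPM in control libraries. The log2 fold change was 3.83 (SE 0.44, edgeR adjusted p = 0.00777), and 4.80 without control replicate 1. Msh6 had 31.6 and 25.6 CPM in extract, against 15.7 and 13.2 CPM in control libraries. The difference on the log2 scale was 0.99 (SE 0.18, edgeR adjusted p = 0.0205), with an adjusted p of 0.193 without extract replicate 1 and 0.0534 without extract replicate 2. With 1 library left out, the median log2 fold change of the 7 lists ran from -0.10 (without extract replicate 1) to -0.01 (without either control library).

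**Figure D4:**
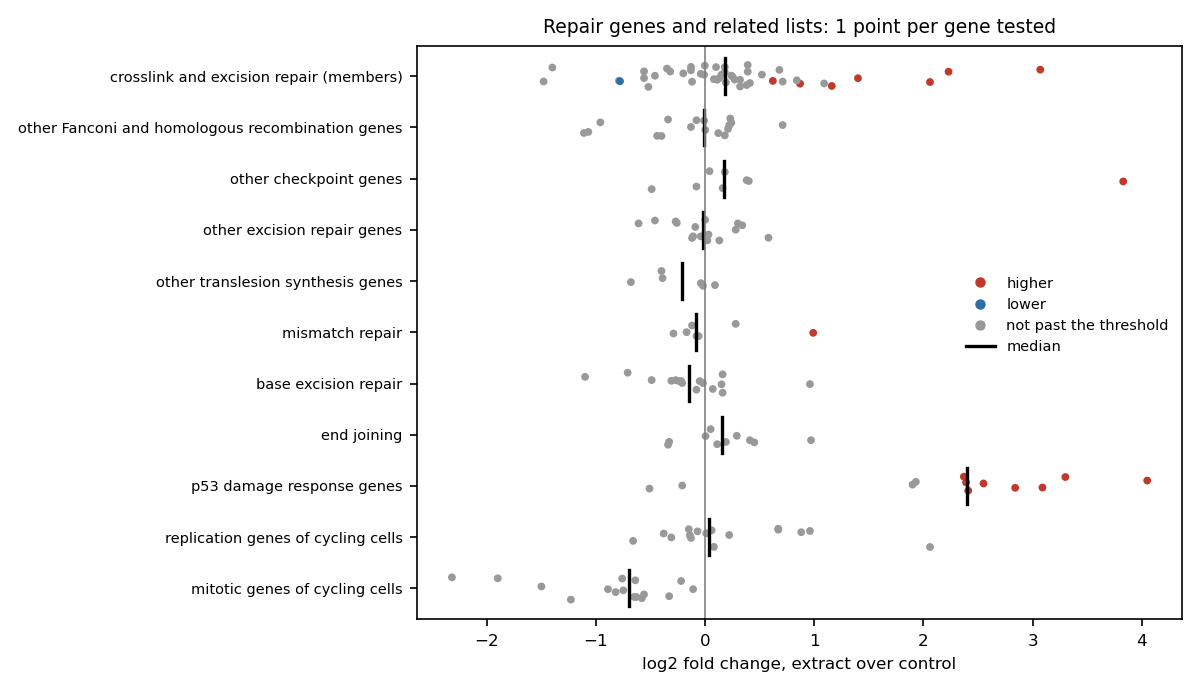
Log2 fold change of extract over control for each tested gene of the repair genes described and of 10 related lists, with the list median as a black bar and genes past the threshold in colour. The p53 list has its median at 2.40, the repair genes at 0.18 and the mitotic list at -0.70.

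Of 12 genes of the p53 damage response, 8 were higher and 0 lower by edgeR, against 4.91% and 3.63% over all genes tested. This list too was chosen with earlier results of these data known, so its share is not an independent test. At an unadjusted p under 0.05 there were 10 and 1, where all genes gave 12.3% and 11.2%. DESeq2 called 10 higher and 0 lower, and limma-voom 9 and 0. Ccng1 (cyclin G1), Zmat3, Bax and Mdm2, all direct p53 targets, had the smallest p-values, with log2 fold changes of 3.09, 3.30, 2.37 and 2.39. Ccng1 had 371.6 and 325.3 CPM in extract, against 43.3 and 38.3 CPM in control libraries. Trp53 itself was not past the threshold at -0.21. Among the repair genes, Polk is a p53 target in mouse cells. Rrm2b, named above as a p53 target, did not pass, nor did Ddb2 and Xpc, named above as p53 targets in human cells. No full list of p53 targets among the repair genes was drawn up, and the part of p53 in them was not tested. Of 16 replication genes of cycling cells, 0 passed by edgeR (unadjusted: 3 higher and 0 lower; DESeq2: 1 and 0; limma-voom: 0 and 0), with a median of 0.04. Leaving out control replicate 1 gave a median of 0.79, and leaving out control replicate 2 gave a median of -0.18. Of the 16 mitotic genes, 0 passed by edgeR, DESeq2 or limma-voom (unadjusted: 0 higher and 2 lower, a share near the 11.2% over all genes), with a median of -0.70. Leaving out control replicate 2 gave a median of -1.21, and leaving out control replicate 1 gave a median of -0.05.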

How the data were processed

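Total RNA from mouse liver was made into Illumina libraries, per the labels' protocols. CASAVA 1.8, HISAT2 2.1.0, HTSeq and the mm10 build are named per the submitters' processing notes, with no roles given. No source used here gives the HTSeq version, the annotation or the strand setting. As deposited, the files hold raw counts per gene symbol, made by the authors without normalization. The 5 closing rows that name no gene stayed out of library sizes and tests. They took, in extract and then control libraries, 8.88%, 9.79%, 8.40% and 10.21% of records in no feature, 5.18%, 5.33%, 6.70% and 9.03% with no unique place, and under 1.3% each for the rest.

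The test was the 2-sided quasi-likelihood F test of edgeR 4.0.16 (R 4.3.3; filterByExpr, TMM, robust dispersions and robust glmQLFit). P-values were adjusted over all 13963 tested genes by the Benjamini-Hochberg procedure, and 0.05 was the threshold. The standard error is the log2 fold change over the square root of F, and 95% intervals are unadjusted. CPM values use TMM-scaled library sizes, and a floor of 3 counts per library is 0.0625 to 0.101 CPM, which covers counting error alone. Chi-square per degree of freedom came to 30.65 within the extract pair and 124.9 within the control pair, far above sampling noise. The edgeR step was tested on simulated data. Alternatives were DESeq2 1.42.0, limma-voom (limma 3.58.1), other scalings, no filter, a strict filter (10 counts in 2 libraries and a mean of 1 CPM), no robust step, each library left out and a replicate block. Positions and promoters are from RefSeq (GRCm38.p6, the mm10 assembly), matched by symbol for 47 of 47 genes and 38 promoters. Transcript lengths and exon overlaps are from GENCODE vM21. The members and lists were chosen with earlier results of these data known. Every listed gene could be named. Of other lists, up to 4 genes with the smallest p past the threshold were. The markers albumin, Hnf4a, Stab1 and Lyve1 were named outside this rule, and Trp53, Eif5b, Tkfc, Acp2 and Lrrc41 were named after their values were seen.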

Additional observations from a re-analysis of the deposited data

How the results depend on the processing

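Of the 8 repair genes called, Polk, Rev1, Mgmt, Ercc5 and Dclre1a passed in all 12 alternatives, and Atr and Mad2l2 in 10. Ercc3 passed in 7, and besides the libraries left out it missed with DESeq2 size factors (adjusted p = 0.0507), upper-quartile factors (0.0583) and no robust step (0.0546). The count of higher repair genes was 6 or 7 in the 8 alternatives that keep every library, and 5 to 9 with 1 library left out. The count of lower ones was 1, or 0 to 2 with 1 library left out, where 2 (Fance and Mad2l2) came without control replicate 1 and 0 without either extract library. Over all genes, the counts were 1034 higher and 921 lower with DESeq2's Wald test, and ran from 233 to 1826 higher and from 134 to 1782 lower with 1 library left out. The median of the repair genes ran from 0.06 (without control replicate 2) to 0.23. The causes were not tested. With 1 library left out, the remaining single library is taken to spread as the other group does.

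Among genes that did not pass, the sign changed in some settings. Fanca was at 0.01 with limma-voom and 0.06 with the replicate block, and Ercc2 was at 0.0037 without a low-count filter. With 1 library left out, log2 fold changes ran from -0.73 to 1.10 for Fanca, -0.56 to 0.56 for Fancb, -0.08 to 0.31 for Fancf, -0.08 to 0.03 for Fancg, -0.15 to 0.04 for Usp1, -0.40 to 1.76 for Rad51c, -0.02 to 0.94 for Xrcc3 and -0.16 to 1.36 for Blm. They ran from -0.16 to 0.51 for Ddb2, -0.18 to 0.67 for Ercc8, -0.03 to 0.02 for Ercc2, -0.08 to 0.47 for Ercc1, -0.20 to 0.28 for Polh, -0.36 to 0.18 for Rev3l and -0.03 to 0.26 for Atm.

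The titles number replicates 1 and 2 in both groups, but nothing says that a number marks a shared animal, batch or day. Deviations of same-numbered libraries correlated at r = 0.202 across 13963 genes, which are not independent. With the replicate block, 7 repair genes were higher and 1 lower, and 902 genes were higher and 682 lower overall.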
